A study of Mus musculus with 12 samples.

Results

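Integrins and the adhesion molecule Icam1 were followed in mouse bone marrow-derived dendritic cells (BMDCs) by RNA-seq. The 9 genes were taken by symbol and comprise 5 integrin α subunits (Itgal, Itgam, Itga4, Itga5 and Itgav), 3 β subunits (Itgb1, Itgb2 and Itgb7) and the integrin ligand Icam1. They are 9 of the 55335 genes listed in the deposited files, and all 9 were among the 14357 genes that passed the filter on low counts. The cells came from CreER mice with an intact Ctcf gene, called WT in all groups, and had grown for 6 days with GM-CSF, a cytokine that drives myeloid precursors towards dendritic cells. The 4 groups of 3 libraries were compared in the same genetic background. WT received neither agent, and WTL was stimulated with lipopolysaccharide (LPS, 100 ng/ml, 3 h), a bacterial cell wall component that activates dendritic cells through Toll-like receptor signalling. WT + JSH23 was pre-treated with JSH-23 (100 µM, 3 h), a small molecule that keeps the NF-κB subunit RelA out of the nucleus, and WTL + JSH23 received that pre-treatment and LPS. The labels do not state a solvent control for JSH-23, and they say nothing of tamoxifen in these cells. The methods of the study describe harvest of floating cells and magnetic selection for CD11c, the protein encoded by Itgax, and call the replicates biological. Nothing further says which libraries share a culture or a mouse, so the p values measure the spread between these libraries.

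Integrins are pairs of one α and one β subunit that span the cell membrane and link the cytoskeleton to other cells or to the extracellular matrix. On leukocytes the β2 subunit pairs with Itgal to form LFA-1, with Itgam to form Mac-1 and with Itgax to form CD11c/CD18, and ICAM-1 is a ligand of LFA-1 and Mac-1. Itga4 pairs with Itgb1 or Itgb7 and binds VCAM-1, fibronectin and the mucosal addressin, whereas Itga5 with Itgb1 binds fibronectin and Itgav pairs with several β subunits to bind vitronectin and latent TGF-β.

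The promoter-proximal sequences of the 3 genes that rose more than 2-fold with LPS are shown because JSH-23 acts on RelA, which binds NF-κB sites. They are the 250 bases before the RefSeq start of each gene on GRCm38.p6, read 5′ to 3′ on the strand of the gene. The Icam1 window is chr9:21015690-21015939 on the plus strand, the Itga5 window is chr15:103366792-103367041 on the minus strand, and the Itgav window is chr2:83724147-83724396 on the plus strand. Capitals mark matches to the motifs searched.
Icam1: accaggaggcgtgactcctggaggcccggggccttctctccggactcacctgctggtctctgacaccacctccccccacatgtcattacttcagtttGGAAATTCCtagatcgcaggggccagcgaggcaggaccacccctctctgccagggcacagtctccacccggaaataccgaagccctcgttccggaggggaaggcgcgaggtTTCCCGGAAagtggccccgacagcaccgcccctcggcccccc
Itga5: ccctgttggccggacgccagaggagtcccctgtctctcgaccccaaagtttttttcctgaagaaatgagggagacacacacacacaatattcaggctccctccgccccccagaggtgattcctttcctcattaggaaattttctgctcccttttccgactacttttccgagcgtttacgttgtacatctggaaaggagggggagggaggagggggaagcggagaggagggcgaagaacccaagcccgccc
Itgav: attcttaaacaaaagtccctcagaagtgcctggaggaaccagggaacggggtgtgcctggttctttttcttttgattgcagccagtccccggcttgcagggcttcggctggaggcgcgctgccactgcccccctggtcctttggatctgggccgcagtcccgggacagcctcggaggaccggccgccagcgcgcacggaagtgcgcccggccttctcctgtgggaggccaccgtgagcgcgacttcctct
The table of RefSeq windows held 7 of the 9 genes, without Itgal and Itgb2. The 4 motifs, searched on both strands, were GGAAATTCC (the NF-κB site letters known from ICAM1), the general NF-κB consensus, TTCNNNGAA (a STAT site) and TATAAA, a core promoter element. The Icam1 window held GGAAATTCC from base -153 to base -145, counted back from the start, and TTCCCGGAA from base -42 to base -34. These matches did not overlap. The Icam1 window held no match to the general NF-κB consensus. GGAAATTCC occurred in 94 of 32851 windows of this length (0.286%), the NF-κB consensus in 7.25%, TTCNNNGAA in 7.02% and TATAAA in 12.4%. Because GGAAATTCC was chosen as the site known from ICAM1, its rarity says nothing further about the match in Icam1. The other 6 windows held none of the 4 motifs, which says only that these letters are not in those 250 bases.

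The libraries held between 24664724 and 34837847 expected counts, and each of the 9 genes had at least 898 counts in every library. Values compared between groups are CPM (counts relative to the library total after scaling by TMM, the trimmed mean of M values), and values compared between genes are TPM (transcript abundances relative to their total), which correct for transcript length. Itgax, by whose protein the cells were selected, stood at 648.5 ± 21.0 CPM in WT (mean ± SD, n = 3), and Cd74, H2-Aa and Ccr7 were abundant in every group, at 12600 TPM, 4100 TPM and 1050 TPM or more. Of 12 dendritic cell markers 11 passed the filter. Flt3 was low, at 3.2 TPM or less in each group mean, and Cd209a was near 0, at 0.217 TPM or less in each group. All 12 macrophage markers were also expressed, with a summed level of 3428 to 3554 TPM in WT. Neutrophil markers summed to 383.8 to 395.5 TPM in WT, where Mmp8 stood at 164 TPM, S100a9 at 93.8 TPM and S100a8 at 85.8 TPM. Ly6g, Elane and Cxcr2 were at 0.41 TPM or less in each group mean. The T cell gene Cd3e, the B cell gene Ms4a1, the NK cell gene Ncr1 and the stromal gene Col3a1 were at or near 0, at 0.23 TPM or less. Other genes of the same lists were expressed, and their levels moved between the groups. In WT and WTL the mean was 49.4 and 29.7 TPM for Klrk1 (NK cell list), 20 and 25 TPM for Kdr (stromal and endothelial), 5.01 and 2.78 TPM for Ighm (B cell) and 4.33 and 1.94 TPM for Cd8a (T cell). In WT + JSH23 and WTL + JSH23 it was 37.8 and 22.8 TPM for Klrk1 and 6.65 and 5.02 TPM for Kdr. In the order WT, WTL, WT + JSH23 and WTL + JSH23, the NK cell list summed to 46.97 to 51, 27.74 to 32.65, 34.77 to 42.73 and 19.09 to 26.2 TPM, and the stromal and endothelial list to 20.59 to 21.35, 31.24 to 32.5, 7.18 to 9.41 and 7.76 to 9.17 TPM. The T cell list stayed at 8.74 TPM or less and the B cell list at 5.57 TPM or less in every library. The part of such cells in the results was not tested. In bulk RNA fewer cells of a type and less RNA per cell cannot be told apart. Within WTL + JSH23, replicate 3 differed from the other replicates more than any other pair of replicates did, with a chi-square over its degrees of freedom of 7.76 and 8.58 against 2.30 to 4.35 elsewhere.

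**Figure D1:**
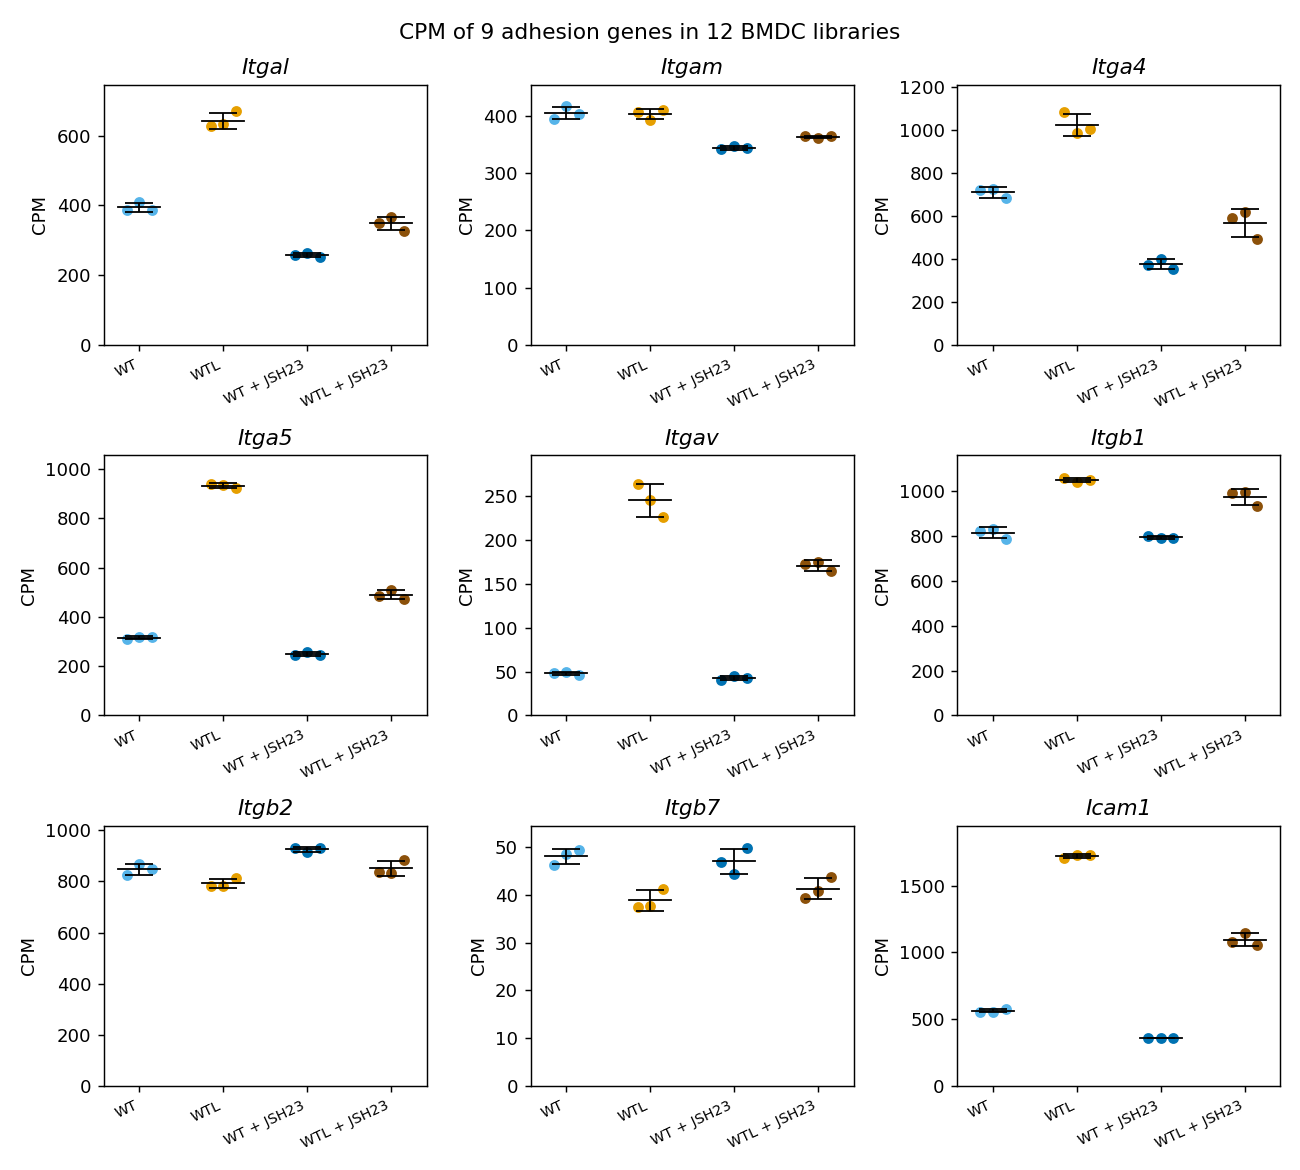
CPM of the 9 genes in the 12 libraries, with 1 panel per gene, 1 point per library, a long line at the mean and bars at 1 SD of 3 libraries. Itga5, Itgav and Icam1 have both LPS groups above both groups without LPS, whereas Itgam lies between 342 and 417 CPM in all 12 libraries.

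In unstimulated BMDCs the β2 chain was the most abundant of these transcripts. Itgb2 stood at 539.0 TPM in WT, followed by Icam1 at 400.2 TPM and Itgb1 at 380.0 TPM. The α subunits lay lower, with Itgam at 149 TPM, Itgal at 141 TPM, Itga5 at 131 TPM and Itga4 at 123 TPM. Itgb7 at 53.8 TPM and Itgav at 18.2 TPM were the lowest, and no neighbours in this order overlapped between libraries. In WTL the order began with Icam1 at 972 TPM, and Itgb2 and Itgb1, at 390.9 TPM and 390.8 TPM, could not be separated. Itga5 came next at 308 TPM, ahead of Itgal (185 TPM), Itga4 (142 TPM), Itgam (118 TPM), Itgav (69.9 TPM) and Itgb7 (33.8 TPM). Icam1 was thus above Itgb2 with LPS and below it without, also when JSH-23 was present. In WT + JSH23, Itgb2 led at 589.6 TPM, then Itgb1 (369.5 TPM), Icam1 (254 TPM), Itgam (126 TPM), Itga5 (102 TPM), Itgal (92.3 TPM), Itga4 (65.3 TPM), Itgb7 (49.5 TPM) and Itgav (16.1 TPM). In WTL + JSH23, Icam1 led at 673 TPM, then Itgb2 (461 TPM), Itgb1 (394 TPM), Itga5 (177 TPM), Itgam (116 TPM), Itgal (109 TPM), Itga4 (85.7 TPM), Itgav (52.1 TPM) and Itgb7 (40.8 TPM). Only Itgam and Itgal overlapped as neighbours there, and none did in WT + JSH23.

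To examine how LPS altered this repertoire, WTL was compared with WT. LPS raised 6 of the 9 genes, namely Itgav, Icam1, Itga5, Itgal, Itga4 and Itgb1, and lowered Itgb7 and Itgb2. The 8 genes that passed an adjusted p of 0.05 are to be read against 65.7% of all genes tested, 31% higher and 34.7% lower. The median log2 fold change of the 9 genes was 0.53, beside -0.05 for all genes tested. Itgav, Icam1 and Itga5 also rose by more than 2-fold, a size that 16.4% of all genes reached. CPM did not overlap between WT and WTL for 8 of the 9 genes, against 69.9% of all genes.

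Among the α subunits Itgav (chr2:83724397-83806916 in GRCm38, plus strand) had the largest change. It was counted at 48.0, 49.0 and 46.4 CPM in WT and at 264, 245 and 227 CPM in WTL, so every WTL library lay well above every WT library. The log2 fold change was 2.36 (SE 0.0526, adjusted p = 2.02e-19 in edgeR's quasi-likelihood test), a 5.13-fold rise. Itga5 (chr15:103344286-103366763, minus strand) went from 309.5, 319 and 318 CPM to 941, 935 and 923 CPM. The groups stood far apart relative to their spread, with a log2 fold change of 1.56 (adjusted p = 6.9e-19 in edgeR, SE 0.0375). Itgal (chr7:127296260-127335138, plus strand), the α chain of LFA-1, went from 387, 409.9 and 386 CPM to 627, 633 and 669.7 CPM, a log2 fold change of 0.71 (adjusted p = 4.09e-12 in edgeR, SE 0.0426). Itga4 (chr2:79255426-79333123, plus strand) went from 721, 724 and 681 CPM to 1083, 986 and 1004 CPM, a log2 fold change of 0.53 (adjusted p = 1.41e-07 in edgeR, SE 0.0613). Neither gene overlapped between the groups, although both changed by less than 2-fold.

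Itgam (chr7:128062640-128118491, plus strand), the α chain of Mac-1, was the only one of the 9 genes that did not pass. It stood at 395, 417 and 404 CPM in WT and at 406, 393 and 411 CPM in WTL, and the groups overlapped. The log2 fold change was -0.01 with a 95% interval from -0.08 to 0.06 (adjusted p = 0.871 in edgeR), but it passed as lower with upper quartile scaling (-0.09, adjusted p = 0.0271) and on unscaled log2(TPM + 1) with limma (-0.34, adjusted p = 4.06e-06). Itgax, which like Itgam pairs with Itgb2, had a log2 fold change of 0.02 (adjusted p = 0.715 in edgeR), at 648.5 ± 21.0 and 655.7 ± 6.84 CPM. Its RNA is read here in cells selected for its protein.

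The β subunits changed less. Itgb1 (chr8:128685654-128733200, plus strand), the common partner of Itga4 and Itga5, went from 825, 833 and 787 CPM to 1060, 1040 and 1053 CPM, a log2 fold change of 0.37 (adjusted p = 9.49e-09 in edgeR, SE 0.0356). On unscaled log2(TPM + 1) this call was lost, at 0.04 (adjusted p = 0.362 in limma). Itgb2 (chr10:77530252-77565708, plus strand) stood at 827, 870.1 and 847 CPM in WT and at 781, 783 and 813 CPM in WTL. The groups lay close but did not overlap, and the log2 fold change was -0.10 (SE 0.0356, adjusted p = 0.0195 in edgeR). That call was lost with DESeq2 size factors (adjusted p = 0.122), with DESeq2 (adjusted p = 0.0826), and without WT replicate 5, WTL replicate 4 or WTL replicate 5, where edgeR gave adjusted p values from 0.0701 to 0.0832. Itgb7 (chr15:102215995-102231944, minus strand), which forms the gut-homing receptor with Itga4, went from 46.3, 48.5 and 49.4 CPM to 37.5, 37.7 and 41.3 CPM. Its log2 fold change was -0.31 (SE 0.0548, adjusted p = 4.16e-05 in edgeR), with no overlap. The ratio of Itgb1 to Itgb7 in TPM, both possible partners of Itga4, was 6.33 to 8.10 in WT and 11 to 12.2 in WTL. It was 6.63 to 8.29 in WT + JSH23 and 8.86 to 10.1 in WTL + JSH23, again with no overlap between libraries with and without LPS.

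Icam1 (chr9:21015985-21028817, plus strand), the ligand whose promoter window held GGAAATTCC, stood at 557, 554 and 575 CPM in WT and at 1705, 1730 and 1729 CPM in WTL. All 3 WTL libraries were about 3-fold above WT, with a log2 fold change of 1.62 (adjusted p = 2.55e-19 in edgeR, SE 0.0365). Some of these genes share exonic sequence with others. Itgam overlaps Gm49368 on the same strand, whose expected count was 0.788% to 2.05% of that of Itgam. Itga4 overlaps Cerkl, Itgav overlaps Gm13684 and Icam1 overlaps Gm47079 on the opposite strand, with at most 48.95, 8.34 and 73.17 expected counts. How reads were divided between these pairs could not be checked, because the strand setting of the counting is not given in the sources used here.

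Whether the LPS change was retained in the presence of JSH-23 was examined by comparing WTL + JSH23 with WT + JSH23, which share no library with the first comparison. Again 8 genes passed and Itgam did not, with 6 higher and 2 lower, against 54.5% of all genes (27.4% higher, 27.1% lower). The median log2 fold change of the 9 genes was 0.43 beside -0.02 for all genes. Itgav and Icam1 exceeded 2-fold (10.3% of all genes), and Itga5 fell just short of it, at 1.97-fold. Itgav went from 40.4, 44.8 and 42.7 CPM to 173, 175.5 and 164 CPM, a log2 fold change of 2.00 (adjusted p = 6.95e-18 in edgeR, SE 0.0536). Icam1 went from 358, 359.8 and 358 CPM to 1081, 1148 and 1053 CPM, a log2 fold change of 1.61 (adjusted p = 5.69e-19 in edgeR, SE 0.0368). Both genes were therefore several times higher in every LPS library.

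Itga5 went from 243, 257 and 244 CPM to 486, 510.4 and 473 CPM, a log2 fold change of 0.98 (adjusted p = 3.07e-15 in edgeR, SE 0.0375). Itga4 went from 371, 399.9 and 355 CPM to 590.5, 616 and 494 CPM (log2 fold change 0.60, SE 0.0621, adjusted p = 4.95e-08 in edgeR), and its lowest LPS value was that of replicate 3. Itgal went from 258, 264 and 252 CPM to 349, 367 and 328 CPM (log2 fold change 0.43, SE 0.0432, adjusted p = 2.6e-08 in edgeR). CPM of the groups did not overlap for these genes, nor for any of the 9, against 59.1% of all genes.

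Itgb1 was 0.29 higher with LPS on the log2 scale (adjusted p = 4.58e-07 in edgeR), at 803, 790.1 and 793 CPM against 992, 998 and 935 CPM, and at 0.09 on unscaled log2(TPM + 1) (adjusted p = 0.0568 in limma). Itgb2 was lower by -0.12 (adjusted p = 0.00726), at 930.1, 916 and 931 CPM against 838, 833 and 885 CPM, and Itgb7 by -0.19 (adjusted p = 0.00573), at 47.0, 44.4 and 49.8 CPM against 39.4, 40.8 and 43.7 CPM. Itgam stood at 342, 348 and 344 CPM without LPS and at 365, 361 and 365 CPM with it. The groups did not overlap, but its log2 fold change of 0.08 did not pass (adjusted p = 0.0605 in edgeR), and its sign turned to -0.13 on unscaled log2(TPM + 1) with limma (adjusted p = 0.0101). With DESeq2 it was 0.09 and passed (adjusted p = 0.0145).

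**Figure D2:**
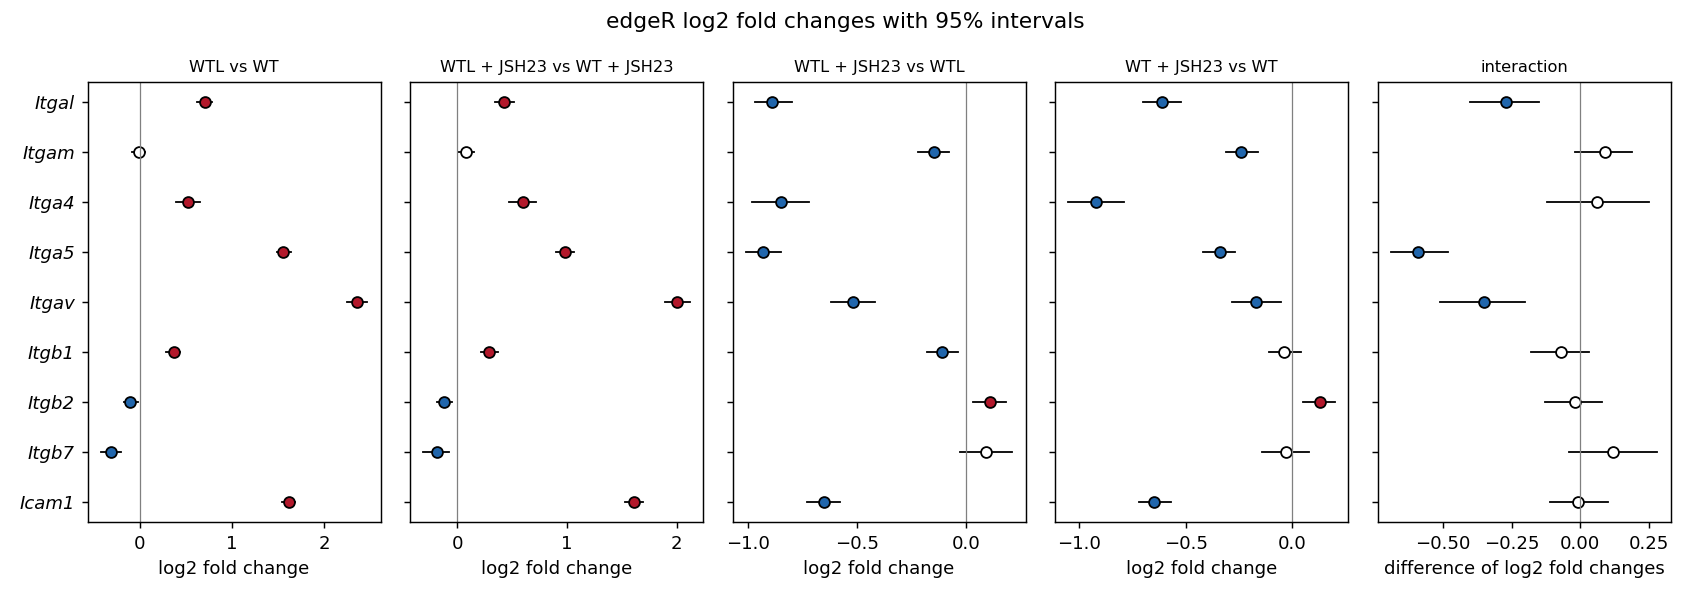
Log2 fold change of each gene in the 4 comparisons and the interaction, with 95% intervals from edgeR; red points passed an adjusted p of 0.05 as higher, blue points as lower, and white points did not pass. Itgav reaches 2.36 with LPS alone, and Itga5 has the most negative interaction, at -0.59.

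The effect of JSH-23 on stimulated cells was examined by comparing WTL + JSH23 with WTL, using the WTL libraries of the first comparison. JSH-23 lowered 7 of the 9 genes, namely Itga5, Itgal, Itga4, Icam1, Itgav, Itgam and Itgb1, and raised Itgb2. In total 8 genes passed, against 48.7% of all genes tested (24.5% higher, 24.2% lower), and the median log2 fold change was -0.52 beside 0.02 for all genes. None exceeded 2-fold, a size that 7% of all genes reached. CPM did not overlap for 8 of the 9 genes, against 54.8% of all genes. Itga5 fell by 0.93 on the log2 scale (SE 0.0369, adjusted p = 1.48e-14 in edgeR), from 933 ± 9.11 to 489.7 ± 19.1 CPM. Itgal fell by 0.89 (SE 0.0429, adjusted p = 3.63e-13), from 643 ± 23.1 to 348 ± 19.6 CPM, and Itga4 by 0.85 (SE 0.0618, adjusted p = 2.06e-10), from 1024 ± 51.7 to 567 ± 64.5 CPM. These α subunits thus came to between 0.525 and 0.554 of their level in WTL. Icam1 fell by 0.65 (SE 0.0357, adjusted p = 2.33e-12), from 1721 ± 14.1 to 1094 ± 48.8 CPM, and Itgav by 0.52 (SE 0.0486, adjusted p = 1.08e-08), from 245 ± 18.3 to 171 ± 5.90 CPM.

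The remaining differences were small. Itgam differed by -0.15 (adjusted p = 0.00105 in edgeR, and 0.58 in limma on unscaled log2(TPM + 1)), Itgb1 by -0.11 (adjusted p = 0.0146) and Itgb2 by 0.11 (adjusted p = 0.0188). Without replicate 3 of WTL + JSH23, the library that stood apart, 6 genes passed, and the adjusted p was 0.069 for Itgb1 and 0.0746 for Itgb2. The Itgb2 call was also lost without WTL replicate 4 (0.0688) or WTL replicate 5 (0.0682) and with DESeq2 size factors (0.0676). The Itgb1 call was lost in a fit of only the 6 libraries (0.0513), and on unscaled log2(TPM + 1) its direction turned, to 0.01 (adjusted p = 0.843 in limma). Itgb7 overlapped between the groups, with a log2 fold change of 0.09 and a 95% interval from -0.03 to 0.21 (adjusted p = 0.209 in edgeR). It was higher on unscaled log2(TPM + 1), by 0.27 (adjusted p = 0.02 in limma).

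Cell type markers moved between WTL and WTL + JSH23 as well, where 24.2% of all genes were lower with JSH-23 and 24.5% higher. All 8 neutrophil markers that could be tested were lower in WTL + JSH23 than in WTL, and their summed level was 279.0 to 299.1 TPM against 331.5 to 345.0 TPM. Of the 12 macrophage markers 8 were lower and 2 higher, with sums of 3093 to 3276 TPM against 3483 to 3605 TPM. Dendritic cell markers included 7 lower and 2 higher of 11, with overlapping sums of 21900 to 23110 TPM against 22670 to 23420 TPM. Itgam, Itgal and Itgb2 are known to be expressed by all of these myeloid cells, and the part of cell composition in their differences was not tested.

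In unstimulated cells, WT + JSH23 was compared with WT, again sharing libraries with the comparisons above. JSH-23 lowered 6 of the 9 genes and raised Itgb2, so that 7 passed, against 41% of all genes tested (18.8% higher, 22.1% lower). The median log2 fold change was -0.24 beside -0.01 for all genes. None exceeded 2-fold, against 5.37% of all genes, and CPM did not overlap for 7 genes, against 51.5% of all genes. Itga4 differed most, at 709 ± 23.8 CPM in WT and 375 ± 22.9 CPM in WT + JSH23, a log2 fold change of -0.92 (adjusted p = 8.98e-11 in edgeR, SE 0.0621). Icam1 fell by 0.65 (adjusted p = 4.85e-12), from 562 ± 11.6 to 358.5 ± 1.10 CPM, and Itgal by 0.61 (adjusted p = 1.66e-10), from 394 ± 13.5 to 258 ± 6.10 CPM. These transcripts were thus lower with JSH-23 before any LPS was added.

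Itga5 fell by 0.34 (adjusted p = 1.37e-07 in edgeR) and Itgam by 0.24 (adjusted p = 8.33e-06). Itgav had a log2 fold change of -0.17 (adjusted p = 0.0202), which was lost without WT replicate 4 (0.0535), WT replicate 5 (0.0742) or WT + JSH23 replicate 1 (0.117), and on unscaled log2(TPM + 1) (0.313 in limma). Itgb2 was higher by 0.13 (adjusted p = 0.00669). Itgb1 and Itgb7 overlapped between the groups, with log2 fold changes of -0.04 (95% interval -0.11 to 0.04, adjusted p = 0.471) and -0.03 (95% interval -0.14 to 0.08, adjusted p = 0.695). In this comparison 22.1% of all genes were lower and 18.8% higher. Macrophage markers were lower in 7 and higher in 2 of 12, with sums of 2831 to 2899 TPM against 3428 to 3554 TPM in WT. Of 8 neutrophil markers 3 were lower, with sums of 332.3 to 357.0 TPM against 383.8 to 395.5 TPM, and their part in these differences was not tested.

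Whether JSH-23 altered the LPS change itself was tested as the interaction, the log2 LPS change with JSH-23 minus that without it. It passed for 3 of the 9 genes, all α subunits and all with a smaller LPS change under JSH-23, against 18% of all genes tested (9.54% higher, 8.44% lower). The median interaction of the 9 genes was -0.02 beside 0.03 for all genes. None exceeded 2-fold, against 1.34% of all genes. Itga5 had an interaction of -0.59 (SE 0.0523, adjusted p = 2.24e-07 in edgeR), Itgav of -0.35 (SE 0.0741, adjusted p = 0.00205) and Itgal of -0.27 (SE 0.0605, adjusted p = 0.00313). On unscaled log2(TPM + 1) the calls of Itgal (-0.15, adjusted p = 0.203 in limma) and Itgav (-0.23, adjusted p = 0.437) were lost. For Icam1 the interaction was -0.01 with a 95% interval from -0.11 to 0.10 (adjusted p = 0.959 in edgeR). For Itga4 it was 0.06, with a wider interval from -0.12 to 0.25 (adjusted p = 0.675). Itgb1, Itgb2, Itgb7 and Itgam had interactions between -0.07 and 0.12 that did not pass (adjusted p from 0.253 to 0.827). That of Itgam passed on unscaled TPM with limma, at 0.21 on both log2(TPM + 1) and log2(TPM + 0.1) (adjusted p = 0.0203 and 0.0218).

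The fold change and the absolute rise therefore gave different pictures for Icam1 and Itga4. Over the 9 pairs of a library with LPS and one without, Icam1 rose by 1160 CPM on average (range 1130 to 1176) without JSH-23 and by 735.5 CPM (range 693 to 790.3) with it. The second rise was 63.4% of the first, from a lower starting level. For Itga4 the rise was 315 CPM (range 261.8 to 401.6) without and 191.5 CPM (range 94.0 to 261.4) with JSH-23, or 60.7%, so the ranges all but met. Itgal kept 36.2% of its rise in CPM (249 to 90.0 CPM), Itga5 39.1% (618 to 241 CPM) and Itgav 65.0% (197 to 128 CPM). Itgb1 kept 76.0% (236 to 179 CPM), with overlapping ranges, whereas those of the other 5 rising genes did not overlap.

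**Figure D3:**
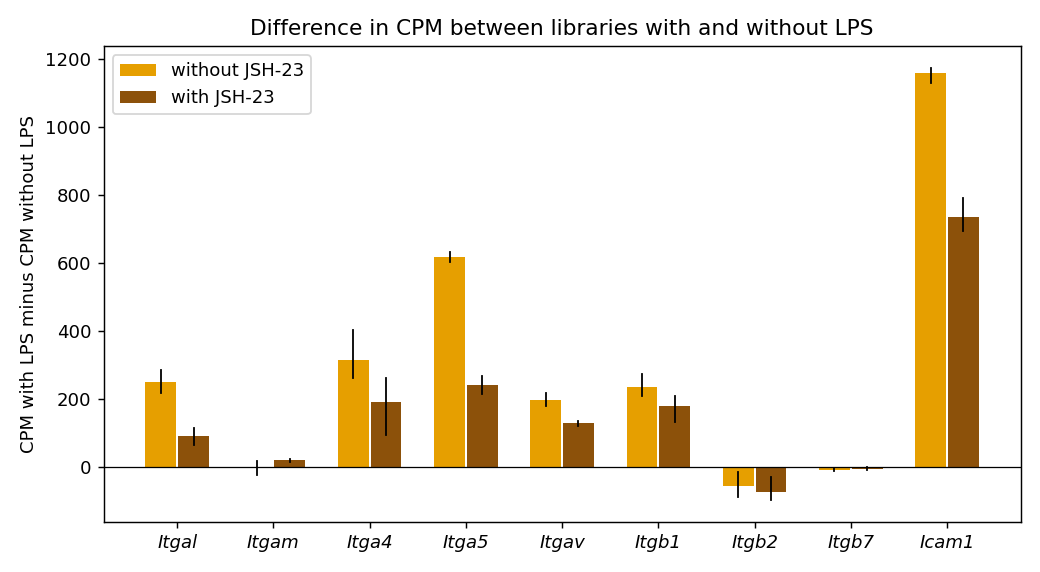
Difference in CPM between libraries with and without LPS for each gene; bars are the difference of group means and lines the range over the 9 pairs of libraries. Icam1 rises by 1160 CPM without JSH-23 and 735.5 CPM with it, and Itga5 by 618 and 241 CPM.

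The balance of the β2 integrins was compared within libraries, where no scaling between libraries enters. Among the α subunits that pair with Itgb2, Itgal took 23.1% to 23.5% of the summed TPM in WT and 32.8% to 34.1% in WTL. Its share was 17.7% to 18.5% in WT + JSH23 and 22.3% to 24.4% in WTL + JSH23. The share was thus higher with LPS in both arms and lower with JSH-23 in both arms, without overlap in any of these 4 contrasts. Itgam took 24.3% to 25% in WT and 21.3% to 21.7% in WTL, and Itgax 51.5% to 52.6% and 44.5% to 45.5%. In WT + JSH23 and WTL + JSH23 the Itgam share overlapped, at 24.3% to 25.7% and 24.2% to 25.5%. The Itgax share did not, at 55.8% to 58% and 51.4% to 52.3%. Itgad, the remaining partner, stayed at 0.0366% or less. The ratio of Itgb2 to the summed α TPM was 0.871 to 0.904 in WT, 0.698 to 0.720 in WTL, 1.13 to 1.20 in WT + JSH23 and 0.947 to 1.06 in WTL + JSH23. The ratio was thus lower with LPS and higher with JSH-23, without overlap of any groups. An exact two-sided permutation test of 3 libraries against 3 cannot give less than p = 0.1, which these contrasts of the Itgal share and of the ratio reached.

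**Figure D4:**
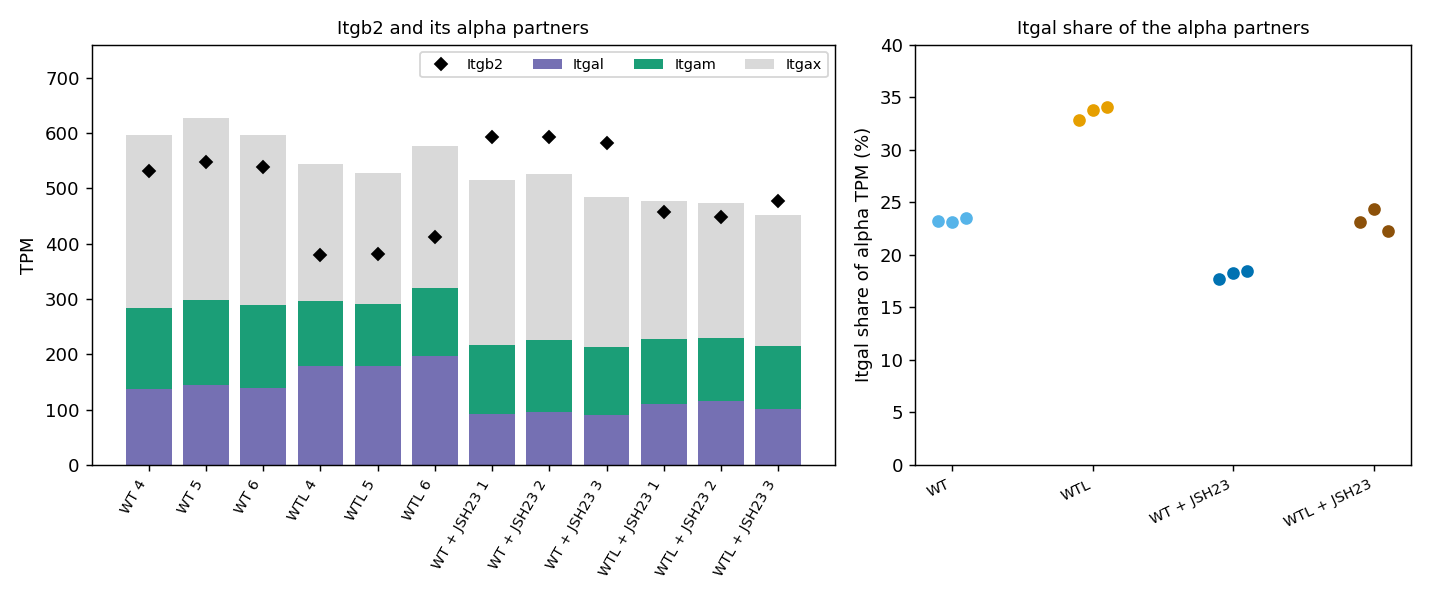
Left, TPM of Itgal, Itgam and Itgax stacked for each of the 12 libraries, with Itgb2 as diamonds; right, the share of Itgal in the summed α TPM, including Itgad, with 1 point per library. The share lies at 32.8% to 34.1% in WTL and at 24.4% or below in the other groups.

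The mean transcript length that RSEM assigned to a gene, which follows the mixture of isoforms, moved for few of these genes. The Itgb2 length was 2793 bases in WT and 2852 bases in WTL, and 2781 bases in WT + JSH23 and 2836 bases in WTL + JSH23, without overlap in either pair. With JSH-23 the Itgb7 length went from 1785 to 1659 bases. Icam1 differed by 3 bases. Groups were separated for 2 of the 9 genes in each LPS comparison, against 13.7% of all genes without and 11.5% with JSH-23. With JSH-23 against no JSH-23 they were separated for none under LPS (10.2% of all genes) and for Icam1 without LPS (10.1%).

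Other genes of the adhesion machinery were counted from 7 lists, whose counts stand beside those of all genes. In WTL against WT 65.7% of all genes passed (31% higher, 34.7% lower), and in WTL + JSH23 against WT + JSH23 54.5% (27.4% higher, 27.1% lower). With JSH-23 under LPS 24.5% of all genes were higher and 24.2% lower, and without LPS 18.8% and 22.1%. Among 7 tested genes of a list of cell-surface adhesion ligands, 5 rose and none fell in WTL. The median log2 fold change was 0.93 beside -0.05 for all genes. That median is the value of Alcam, which is 1 of the 5 but not an established integrin ligand. Icam5, a relative of Icam1, rose by 2.31 (4.13 to 20.4 CPM), and Vcam1, the ligand of Itga4 integrins, by 1.81 (36.4 to 128 CPM). With JSH-23 present Vcam1 rose by 1.82 (20.3 to 71.7 CPM) and Icam5 by 2.19, and the interaction passed for neither (adjusted p = 0.947 and 0.673 in edgeR). JSH-23 lowered 6 of these 7 genes under LPS and 4 without it (24.2% and 22.1% of all genes), Vcam1 by 0.83 and 0.85. Alcam went the other way, by 0.32 and 0.61.

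Of 3 other β subunits tested, Itgb8, which with Itgav activates latent TGF-β, rose by 1.82 in WTL (92.6 to 327 CPM), and Itgb5 fell by 0.46. In WTL + JSH23 compared with WT + JSH23, Itgb8 rose by 1.39 and Itgb5 fell by 0.37. JSH-23 raised Itgb8 by 0.64 without LPS. Of 8 other α subunits tested, 1 rose and 3 fell in WTL (31% and 34.7% of all genes), with Itga6, a laminin receptor chain, lower by 0.67 (45.9 to 28.9 CPM). Itga2b, Itga3, Itga7, Itga10 and Itgae were at very low levels, at a mean of 1.3 CPM or less in every group. The rise was that of Itga7 (0.434 to 1.06 CPM), and Itga10 was among the falls (1.22 to 0.563 CPM). With JSH-23 1 of the 8 passed, against 54.5% of all genes, namely Itga6, which was lower, and its interaction was 0.31 (adjusted p = 0.018 in edgeR). In WTL + JSH23 against WT + JSH23 the low-level α subunits had SEs of 0.276 to 0.434, so their lack of a call says little. Of 8 matrix and soluble ligands, 6 rose and none fell in WTL, whereas on unscaled log2(TPM + 1) with limma 3 were higher and 1 lower. Thbs1, which encodes thrombospondin, rose by 1.45 with LPS (464 to 1270 CPM) and by 1.64 with JSH-23 alone (to 1451 CPM), and its interaction was -1.37 (adjusted p = 1.49e-10 in edgeR). The low-level matrix genes Tnc and Col4a1 had interactions of -1.18 and -0.52. Tnc stood at 3.48 CPM in WT, 12.3 CPM in WTL and 6.16 CPM in WTL + JSH23. Spp1, encoding osteopontin, was higher by 0.66 in WTL + JSH23 than in WTL.

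Selectins and their ligands were tested for 5 genes, of which 3 fell and 1 rose in WTL (34.7% of all genes were lower), with Selplg, encoding PSGL-1, lower by 0.67 without and 0.54 with JSH-23. Of 18 integrin activators and inhibitors, 8 rose and 4 fell in WTL, a share of calls (12 of 18) near the 65.7% of all genes. The balance turned on unscaled log2(TPM + 1), where limma called 3 higher and 10 lower. Rasa3, an inactivator of Rap1, fell by 1.41 without and 1.45 with JSH-23. Rapgef1, a Rap1 activator, was 0.59 higher in WTL + JSH23 than in WTL, with an interaction of 0.41, and that of Sharpin was 0.21. Of 19 focal adhesion and signalling genes, 11 rose and 4 fell in WTL, against 8 higher and 7 lower on unscaled log2(TPM + 1) with limma. Under LPS JSH-23 lowered 12 of them and raised 4, where 24.2% of all genes were lower and 24.5% higher. Vcl, encoding vinculin, rose with LPS by 1.46 without and 1.53 with JSH-23, and its interaction of 0.07 did not pass (adjusted p = 0.514 in edgeR). Zyx was 0.55 higher in WTL + JSH23 than in WTL. The Src family kinases Fgr and Lyn, which signal downstream of β2 integrins, were lower by 1.34 and 1.20 with JSH-23 under LPS and by 1.38 and 0.79 without LPS.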

How the data were processed

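RNA-seq was carried out by the authors on 12 libraries of BMDCs in 4 groups of 3, taken from the sample titles. Per the labels and the study's own methods section, reads were trimmed with Trim Galore, aligned to mm10 with STAR and quantified with RSEM over a GENCODE annotation of unstated release. The submitters' processing notes give STAR 2.6.0c, and the study's reporting summary names another version. The authors deposited RSEM expected counts for each gene, in which a read pair that fits several genes is divided between them, without scaling between libraries. The deposited TPM values and transcript lengths were computed by the authors in the same run, so TPM were used only for levels within a library and in an alternative. The labels name an rRNA depletion kit and the methods a stranded polyA kit, and which applied was not settled. The deposited FPKM column was not used.

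Expected counts were rounded, filtered with filterByExpr (14357 of 55335 genes, 99.94% to 99.95% of counts) and scaled by TMM (factors 0.859 to 1.12) in edgeR 4.0.16 under R 4.3.3. A quasi-likelihood F-test used all 12 libraries and one mean for each group, with 8 residual degrees of freedom. Two-sided p values were adjusted (Benjamini-Hochberg) across the genes tested, and genes passed at an adjusted p under 0.05. Standard errors are the absolute log2 fold change over the square root of F. Alternatives were other scalings and filters, DESeq2 1.42.0, limma 3.58.1 on log2(TPM + 1) or log2(TPM + 0.1), a threshold of 2-fold, a replicate block, fits of only the libraries compared, and leaving out each library. The fit was tested on simulated data. Names and positions are from GENCODE M21 on GRCm38 and promoter windows from RefSeq on GRCm38.p6. The lists were written from general knowledge, and the 9 genes and the lists were chosen with earlier results of these data known. The 9 genes, Itgax and, in each comparison, the 3 largest rises and falls over the 7 adhesion lists at a mean of 10 CPM or more are named. Further list genes stand beside them for comparison (Vcam1, Alcam, Itgb8, Itgb5, Itga6, Thbs1, Vcl). Itga2b, Itga3, Itga7, Itga10 and Itgae are named for their low levels. For each of the 9 genes, the 2 protein-coding genes of highest Pearson r are also named.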

Additional observations from a re-analysis of the deposited data

Results flagged for a closer look

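The LPS changes with and without JSH-23 differed by a direct test, the interaction term in edgeR, for 3 of the 9 genes, against 18% of all genes tested. Itga5 had a log2 LPS change of 1.56 without and 0.98 with JSH-23, an interaction of -0.59 (SE 0.0523, adjusted p = 2.24e-07). Itgav had 2.36 and 2.00, an interaction of -0.35 (SE 0.0741, adjusted p = 0.00205), and Itgal had 0.71 and 0.43, an interaction of -0.27 (SE 0.0605, adjusted p = 0.00313). In each case all 3 LPS libraries lay above all 3 controls in both arms. On unscaled log2(TPM + 1) with limma the calls of Itgav (adjusted p = 0.437) and Itgal (adjusted p = 0.203) were lost. The other 6 genes did not pass the test of the difference in edgeR.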

How the results depend on the processing

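Each value was recomputed under the alternatives, 918 values in all for the changes of single genes, of which 861 kept their direction and their side of the threshold, 26 lost and 9 gained a call, and 22 changed sign. Of these 22, 18 passed in neither fit. The LPS change of Itgam became 0.03 with DESeq2 size factors and with DESeq2, 0 in a fit of only the 6 libraries and 0.01 without WT replicate 5 or WTL replicate 5 (range -0.03 to 0.01 leaving out 1 library), and with JSH-23 it became -0.01 with upper quartile scaling. The JSH-23 change of Itgb7 without LPS became 0.01 without WT + JSH23 replicate 2 (range -0.07 to 0.01). The interaction of Icam1 became 0 with a mean of at least 1 CPM and 0 to 0.02 without WT replicate 4 or 5 or WTL + JSH23 replicate 1 or 3 (range -0.04 to 0.02). On both TPM scales the interactions of Itgb1, Itgb2 and Icam1 became 0.05, 0.11 and 0.12. With a threshold of more than 2-fold added, the number of the 9 genes that passed became 3 in WTL against WT, 2 in WTL + JSH23 against WT + JSH23, and 0 with JSH-23 under LPS, with JSH-23 without LPS and for the interaction. On log2(TPM + 1) and log2(TPM + 0.1) with limma, the LPS change of Itgam with JSH-23 turned to -0.13 in both fits (adjusted p = 0.0101 and 0.0109), and the JSH-23 change of Itgb1 under LPS to 0.01 in both (adjusted p = 0.843 and 0.841). TPM are not scaled between libraries, and log2(TPM + 1) moved the median change of all genes from -0.05 to -0.26 in WTL against WT. It went from -0.02 to -0.16 in WTL + JSH23 against WT + JSH23 and from 0.02 to 0.1 with JSH-23 under LPS. Among the genes that passed, the log2(TPM + 1) scale also moved the share that was higher, from 47.2% to 19.7%, from 50.3% to 24.9% and from 50.3% to 68.3%. The same share of the interaction went from 53.1% to 79.5% there, to 43.8% with DESeq2 size factors and to 39.9% with DESeq2, and upper quartile scaling moved that of LPS with JSH-23 to 37.7%. Leaving out 1 library at a time, 7 to 8 of the 9 genes passed in WTL against WT, 8 to 8 in WTL + JSH23 against WT + JSH23, 6 to 8 with JSH-23 under LPS, 6 to 7 without LPS and 3 to 3 for the interaction. Counts in the short lists moved more. The number of other α subunits that passed with LPS and JSH-23 went from 1 to 3 without WT + JSH23 replicate 1.

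With a replicate block, 8, 8 and 3 of the 9 genes passed in the LPS comparisons without and with JSH-23 and in the interaction, and none of the 27 changes lost its direction or call. The deviations of same-numbered libraries of WT and WTL had correlations of 0.00737, 0.0314 and 0.0648, and those of the JSH-23 groups of 0.0511, 0.0331 and 0.151. Not every library correlated best with its own number. With 3 libraries per group these values cannot settle whether same-numbered libraries share a culture or a mouse. No paired analysis was possible for JSH-23 against no JSH-23 because those groups share no replicate numbers. With 3 libraries per group, log2 changes near 0.1, such as those of Itgb2 and Itgb1, depend on single libraries and on the scaling. The labels give no batch.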

Other observations

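The genes whose log2 CPM over the 12 libraries was most like that of each of the 9 genes were named from 7697 protein-coding genes with a mean of at least 10 CPM. The 12 libraries share 4 treatments and are not independent points, so the Pearson r values are descriptions. For Itgal they were St3gal5 (0.999) and Hadha (0.997), for Itga5 H3f3b and Bcl2l11 (0.997 each), and for Itgav Tnfsf15 and Tab2 (0.999 each). For Itga4 they were N4bp1 and Ptprj (0.996 each), for Itgb1 Appl1 and Zadh2 (0.994 each), and for Icam1 Lpar1 (0.998) and Hivep3 (0.997). The values were lower for the genes that changed little, with Nfxl1 (0.986) and Susd6 (0.984) for Itgam, Pgls (0.98) and Ubl3 (0.973) for Itgb2, and Ppm1g (0.965) and Tysnd1 (0.958) for Itgb7.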
